A study of Homo sapiens with 2 samples.

Results

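HOX genes, the homeobox genes of the HOXA, HOXB, HOXC and HOXD clusters, were examined as 44 probe sets of 28 genes among 54675 probe sets and 19775 named genes on the arrays. A probe set was a member when the platform annotation gave it exactly 1 symbol, made of HOX, a cluster letter and a paralogue number. RefSeq lists 39 such genes. All 10 HOXB genes and all 9 HOXC genes were covered, with 8 of 9 HOXD genes and 1 of 11 HOXA genes. The other HOXA genes and HOXD3 were not analysed here, and 3 probe sets that carry several symbols, HOXD3 and HOXD4 among them, were left out by the rule. The HOXA cluster lies on chromosome 7, HOXB on chromosome 17, HOXC on chromosome 12 and HOXD on chromosome 2.

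Total RNA came from LN229, an established human glioblastoma line grown in DMEM with serum, and was labelled for Affymetrix 3′ expression arrays. The plasmid was pSUPER.neo-miR-127-3p in the culture that overexpressed the microRNA miR-127-3p, and empty pSUPER.neo in the control culture. The labels do not say whether either was a clone or a pool of transfected cells. Each group had 1 array, so nothing below has a replicate check, no test between groups was possible, and no p-value is given.

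HOX proteins are DNA-binding transcription factors that set position along the body axis of the embryo. Within a cluster the genes stand in the order of the axis, low paralogue numbers being used towards the head and high numbers towards the tail, and the order in time is similar. Cells of the trunk and limbs often keep part of their HOX pattern in culture, which is why it is read as a record of position, whereas forebrain tissue is known for having little HOX expression. Trithorax group proteins hold active HOX genes on and Polycomb group proteins hold silent ones off. Many HOX proteins bind DNA together with cofactors of the PBX and MEIS families.

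The microRNA that separates the cultures is shown because it is the agent tested. Its mature form is encoded at chr14:100883035-100883056 of the plus strand (GRCh38.p14, RefSeq). The capitals mark the seed, bases 2 to 8, which pairs with target transcripts.

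hsa-miR-127-3p: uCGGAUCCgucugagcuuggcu

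Signals are given in arbitrary units on a linear scale. Among non-control probe sets the miR-127-3p array had a median of 83.3 and the control array one of 93.9, and a signal under its own array's median is called dim here. It is a working limit, with no detection call behind it. A gene is represented by its probe set with the highest mean log2 signal over both arrays. Ratios are log2(signal + 1) of miR-127-3p minus control, less the median over all genes. Folds are ratios of the signals as deposited. Where 1 array was dim, the fold is a lower limit that puts the dim signal at its array's median. Across 5974 pairs of probe sets that share a gene, ratios scattered with an SD of 0.41 per probe set. That scatter is used as a guide to error within the arrays and leaves out variation between cultures. Levels are compared between arrays at the same probe set only, since probe sets of different genes differ in brightness for the same amount of RNA.

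Of the 28 HOX genes, 23 were above the array median in miR-127-3p cells and 23 in control cells. In all, 21 were above it on both arrays, 3 on neither, 2 on the miR-127-3p array alone and 2 on the control array alone. Of all 19775 named genes, 56.6% were above it on both arrays and 35.4% on neither. The state was thus the same on both arrays for 85.7% of HOX genes, against 92.0% of all genes. HOXA2 and HOXB13 were the 2 genes above it on the miR-127-3p array alone, and HOXD1 and HOXD13 were those above it on the control array alone. HOXB1, HOXC12 and HOXD12 were dim on both arrays.

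Of the HOXB genes, 5 were at least 2-fold lower in miR-127-3p cells, while HOXC genes stayed within 2-fold and HOXD genes did so with the exception of HOXD13 and of HOXD1, which did not pass the signal filter. A filter on low signals (mean log2 signal above that of the median probe set) was passed by 24 HOX genes, of which 6 were at least 2-fold lower and none at least 2-fold higher. For comparison, 8.67% were at least 2-fold lower and 5.06% at least 2-fold higher among all 11985 genes that passed. The 6 genes were HOXB2, HOXB3, HOXB4, HOXB8, HOXB9 and HOXD13, and HOXB9 and HOXD13 lay close to the threshold. The median log2 ratio was -0.17 over the 24 HOX genes, and 0 over all genes by construction. Under alternative settings the HOX median lay between -0.17 and -0.06. By cluster it was -1.04 over 9 HOXB genes, 0.02 over 8 HOXC genes and 0.09 over 6 HOXD genes. These differences between clusters were not tested.

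A second count used every gene above the median on at least 1 array, with dim signals set to the median. It held 25 HOX genes, of which 7 were at least 2-fold lower and none higher, HOXD1 being the addition. Of all 12848 genes so counted, 8.51% were lower and 4.62% higher by that much.

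**Figure D1:**
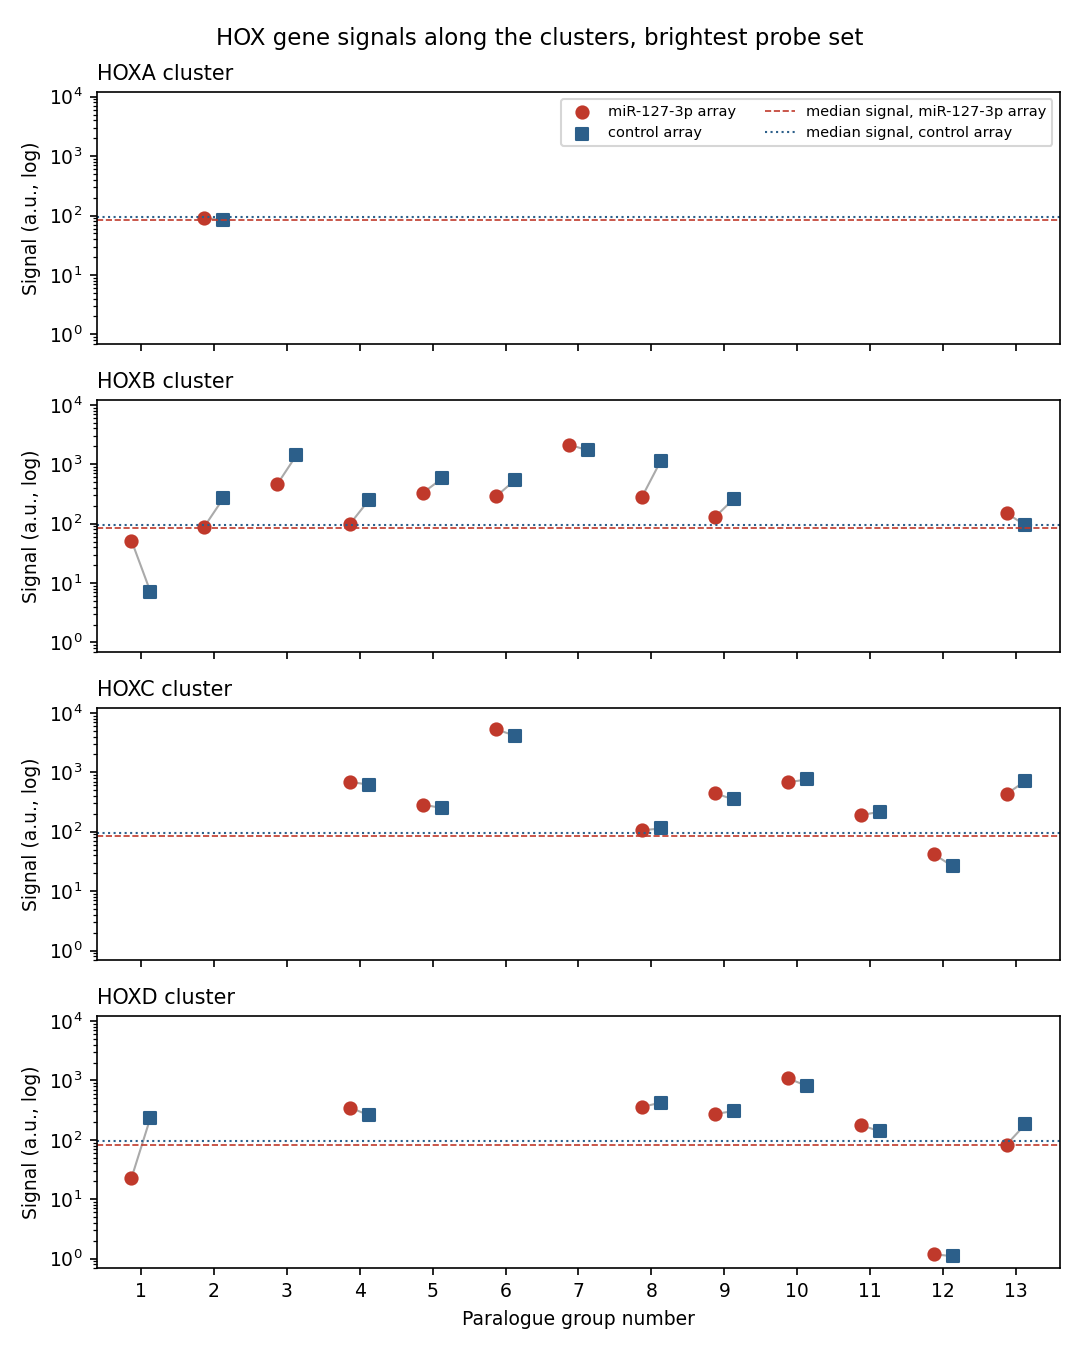
Signal of each HOX gene (y axis, arbitrary units, log scale) against its paralogue number (x axis), with 1 panel for each cluster; red circles are the miR-127-3p array, blue squares the control array, grey lines join the same probe set, and horizontal lines are the array medians. In the HOXB panel the circles of HOXB2 to HOXB6, HOXB8 and HOXB9 lie below the squares. Those of HOXB7, HOXB13 and the dim HOXB1 lie above. In the HOXC panel circles and squares of most genes lie close together.

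At the low-numbered end of the HOXB cluster, HOXB1, which patterns the hindbrain, was dim on both arrays, with a signal of 51.7 in miR-127-3p cells and 7.14 in control cells. No fold is given for it, and its second probe set gave 6.08 in miR-127-3p cells and 6.87 in control cells. HOXB2, another hindbrain gene, had 89.3 in miR-127-3p cells against 267 in control cells. That is 2.99-fold lower, with the miR-127-3p signal just above its array median. HOXB3 had 462 in miR-127-3p cells and 1405 in control cells, which is 3.04-fold lower. Its second probe set was dim on both arrays, at 38.2 in miR-127-3p cells and 92.9 in control cells. HOXB4, known for expanding blood stem cells when overexpressed, had 99.9 in miR-127-3p cells and 253 in control cells and was 2.53-fold lower. HOXB2, HOXB3 and HOXB4 were therefore all lower, at log2 ratios of -1.58, -1.61 and -1.34. RefSeq genes HOXB3 and HOXB4 overlap, so signal could be shared between them, and HOXB2 and HOXB4 had 1 probe set each.

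Probe sets of HOXB5 and HOXB6 disagreed. For HOXB5, one probe set gave 332 in miR-127-3p cells and 577 in control cells, a log2 ratio of -0.80, and the other gave 585 in miR-127-3p cells and 327 in control cells, a ratio of 0.83. Their mean log2 signals differed by little, so neither direction is given for HOXB5. Both carry a suffix that marks probes shared with other transcripts. For HOXB6 the brighter probe set gave 288 in miR-127-3p cells and 540 in control cells, a ratio of -0.92 at a probe set with the same kind of suffix, while the second was dim on both arrays at 75.7 in miR-127-3p cells and 50.7 in control cells.

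HOXB7, which lies between HOXB6 and HOXB8, was the HOXB gene whose probe sets all pointed the other way. Its 3 probe sets gave 2139, 2055 and 1904 in miR-127-3p cells, against 1710, 1585 and 1084 in control cells. Their log2 ratios were 0.31, 0.36 and 0.80, each short of 2-fold, and all 3 carry a cross-match suffix. HOXB8, which can hold blood progenitors in an immature state, gave 280 in miR-127-3p cells and 1149 in control cells. At 4.10-fold lower it had the largest difference among the HOX genes past the filter, but this probe set carries a cross-match suffix. HOXB8 drops out when such probe sets are left out, since its second probe set was dim on both arrays at 7.47 in miR-127-3p cells and 73.7 in control cells.

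HOXB9, a gene of thoracic patterning in mice, was lower at both probe sets. The first gave 128 in miR-127-3p cells and 262 in control cells, and the second gave 111 in miR-127-3p cells and 245 in control cells. The folds were 2.05 and 2.20, and the second probe set carries a cross-match suffix. The first probe set fell short of 2-fold under 5 alternative settings, where its log2 ratio lay between -0.98 and -0.89. HOXB13, a gene known from the prostate, gave 150 in miR-127-3p cells and 93.8 in control cells, just under that array's median, and was at least 1.60-fold higher. Its second probe set was dim on both arrays, at 14.9 in miR-127-3p cells and 27.7 in control cells. Of the 9 HOXB genes past the filter, 7 had ratios below 0 at the brightest probe set. HOXB5 was 1 of the 7, though its 2 probe sets pointed in opposite directions. Of the 9, 1 lay within the probe set spread of 0.41. Of all 11985 genes past the filter, 5992 had ratios below 0 and 52.3% lay within that spread.

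**Figure D2:**
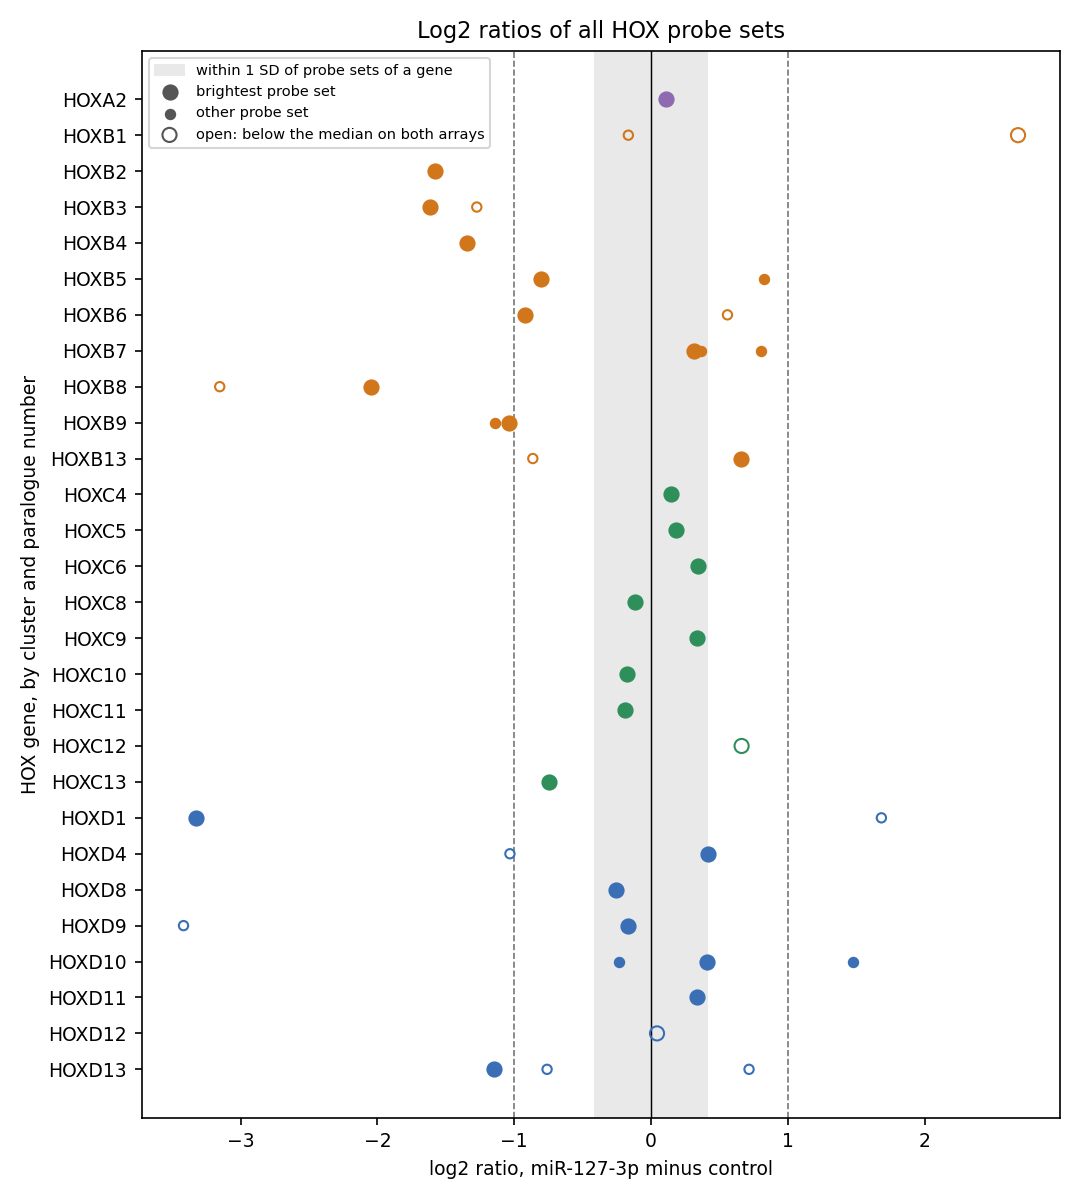
Log2 ratio of miR-127-3p minus control (x axis) for all 44 HOX probe sets, by gene (y axis); large symbols are the brightest probe set of a gene, small ones the others, open ones were dim on both arrays, the grey band is 0.41 on either side of 0 and the dashed lines mark 2-fold. HOXB2, HOXB3, HOXB4, HOXB8 and HOXB9 have filled symbols left of the lower line, HOXB5 has filled symbols on both sides of 0, and most filled HOXC symbols lie in the band.

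HOXC genes differed little between the arrays. Of the 8 past the filter, 7 had log2 ratios within 0.41 of 0, with 4 above 0 and 4 below, and the range was -0.75 to 0.34. Among the genes of the middle of the cluster, HOXC4 gave 689 in miR-127-3p cells and 618 in control cells. HOXC5 gave 286 in miR-127-3p cells and 249 in control cells, and HOXC6, a gene of thoracic and mammary patterning, gave 5280 in miR-127-3p cells and 4137 in control cells. Their ratios of 0.15, 0.18 and 0.34 were all above 0, but the RefSeq genes HOXC4, HOXC5 and HOXC6 overlap one another and are not separate measurements of the locus with certainty. HOXC8, used in the thoracic region of mice, was near the array medians, with 106 in miR-127-3p cells and 113 in control cells.

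In the high-numbered section, HOXC9, which defines thoracic motor neurons, gave 444 in miR-127-3p cells and 349 in control cells. HOXC10, active in the lumbar spinal cord and hind limb, gave 677 in miR-127-3p cells and 758 in control cells. HOXC11 gave 191 in miR-127-3p cells and 216 in control cells. Their ratios were 0.33, -0.18 and -0.19. HOXC12 was dim on both arrays, at 42.3 in miR-127-3p cells and 26.1 in control cells. HOXC13, which controls hair keratin genes, gave 431 in miR-127-3p cells and 717 in control cells, and its ratio of -0.75 was the HOXC value outside the spread. Every HOXC gene had 1 probe set, so agreement between probe sets could not be assessed for this cluster. Those of HOXC6 and HOXC13 carry a cross-match suffix.

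In the HOXD cluster, the genes at either end were lower in miR-127-3p cells and those between them stayed within 2-fold. HOXD1, known in mice from pain-sensing neurons, gave 22.7 in miR-127-3p cells and 235 in control cells and was at least 2.83-fold lower. This probe set carries a cross-match suffix. The second probe set of HOXD1, without such a suffix, was dim on both arrays, at 9.21 in miR-127-3p cells and 2.15 in control cells. Neither passed the filter. HOXD4 gave 348 in miR-127-3p cells and 258 in control cells, a ratio of 0.42. A second probe set of HOXD4 was dim on both arrays, at 11.2 in miR-127-3p cells and 23.7 in control cells. RefSeq genes HOXD4 and HOXD3 overlap, so signal could be shared between them, and HOXD3 was not analysed. HOXD8 gave 357 in miR-127-3p cells and 423 in control cells, and HOXD9 gave 273 in miR-127-3p cells and 304 in control cells, with ratios of -0.25 and -0.17. A second probe set of HOXD9 was dim on both arrays, at 6.75 in miR-127-3p cells and 81.1 in control cells.

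HOXD10 to HOXD13 are known for limb and digit patterning. The 3 probe sets of HOXD10 gave 1086, 157 and 175 in miR-127-3p cells, against 810, 184 and 61.8 in control cells. Their ratios were 0.41, -0.23 and 1.47, on both sides of 0, and the third was dim in control cells, at least 1.86-fold higher in miR-127-3p cells. HOXD11 gave 178 in miR-127-3p cells and 139 in control cells, a ratio of 0.34. HOXD12 was near 0 on both arrays, at 1.18 in miR-127-3p cells and 1.10 in control cells. HOXD13 gave 82.8 in miR-127-3p cells, just under the array median, and 183 in control cells, so it was at least 2.20-fold lower. Its other 2 probe sets were dim on both arrays and lay on opposite sides of 0, at 33.2 in miR-127-3p cells and 56.4 in control cells for one and 17.5 in miR-127-3p cells and 10.2 in control cells for the other.

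The one HOXA gene measured, HOXA2, which patterns the face and hindbrain, gave 91.1 in miR-127-3p cells and 83.6 in control cells. Both values lie next to their array medians, and the ratio was 0.11.

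Along the paralogue series, 2 of 3 genes of groups 1 to 3 past the filter were at least 2-fold lower. The counts were 2 of 11 for groups 4 to 8 and 2 of 10 for groups 9 to 13. Among all genes that passed, the share was 8.67%. In groups 1 to 3 both were HOXB genes, HOXB2 and HOXB3. The third was HOXA2, and no HOXC or HOXD gene of these groups passed the filter. In groups 4 to 8 both were HOXB genes, HOXB4 and HOXB8. In groups 9 to 13 they were HOXB9 and HOXD13. Genes of the same number in other clusters often differed from them. In group 4, HOXB4 had a log2 ratio of -1.34 while HOXC4 had 0.15 and HOXD4 had 0.42. In group 8, HOXB8 had -2.04 while HOXC8 had -0.12 and HOXD8 had -0.25. In group 9, HOXB9 had -1.04, HOXC9 0.33 and HOXD9 -0.17. In group 13, HOXD13 and HOXC13 had -1.15 and -0.75 while HOXB13 had 0.66. With 1 array in each group these differences within paralogue groups were not tested.

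Across the 24 HOX genes past the filter, log2 signals of the arrays had a Pearson correlation of 0.86 and a Spearman correlation of 0.82. Across all 11985 genes they were 0.88 and 0.91. Both are descriptions across genes that share the brightness of their probes between arrays, and genes are not independent replicates.

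**Figure D3:**
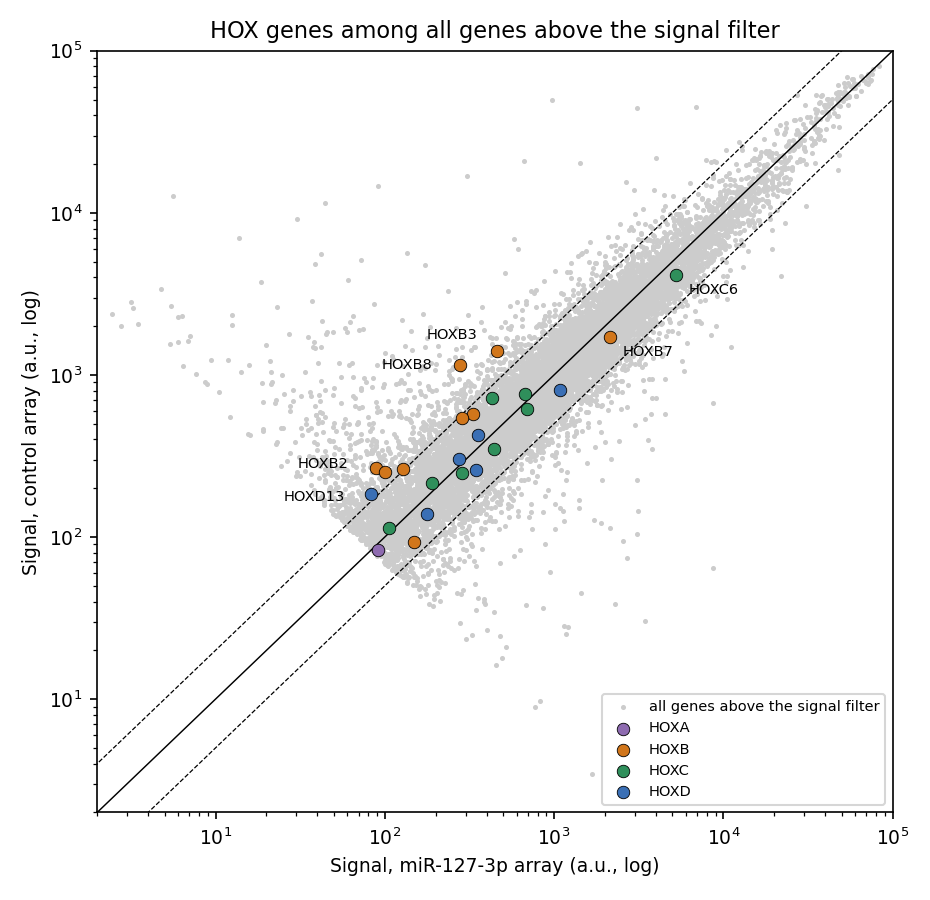
Signal on the miR-127-3p array (x axis) against signal on the control array (y axis), both in arbitrary units on log scales, for 24 HOX genes coloured by cluster and all 11985 genes past the signal filter in grey; the solid line is equality and dashed lines are 2-fold. The 6 genes HOXB2, HOXB3, HOXB4, HOXB8, HOXB9 and HOXD13 lie above the upper dashed line, and HOXC6 and HOXB7 lie within the dashed lines.

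Sequence before the start was examined for the 11 HOX members in a RefSeq promoter table (GRCh38.p14), taking 250 bases upstream. CG dinucleotides, which cluster in promoters that Polycomb and trithorax group proteins occupy, numbered a median of 16 in these 11, and from 4 to 31, against a median of 11 over 35116 promoters. HOXC4 and HOXC5 share one window because RefSeq gives them the same start. The motif TATAAA on either strand was found in 1 of the 11, that of HOXD13, against 10.7% of all promoters. The 120 bases before the start are shown for HOXD1, at chr2:176188548-176188667, and for HOXD4, at chr2:176151430-176151549. Over 250 bases these genes had the highest and lowest CG counts of the 11. At their brightest probe sets they have opposite ratios in the same cluster. That of HOXD1 carries a cross-match suffix and did not pass the filter. The second probe sets, dim on both arrays, had ratios of 1.68 for HOXD1 and -1.03 for HOXD4, opposite to the brightest ones. Both genes lie on the plus strand, capitals mark CG, and the pair was chosen after the values were seen.

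HOXD1: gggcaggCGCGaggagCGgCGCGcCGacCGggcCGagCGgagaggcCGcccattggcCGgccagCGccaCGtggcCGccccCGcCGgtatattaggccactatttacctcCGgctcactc

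HOXD4: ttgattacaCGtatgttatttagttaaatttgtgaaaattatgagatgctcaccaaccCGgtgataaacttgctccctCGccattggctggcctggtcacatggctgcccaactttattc

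The HOXD1 stretch holds 17 CG and the HOXD4 stretch holds 3. HOXD13, also lower in miR-127-3p cells, had 21 CG in its 250 bases, and HOXD10, HOXD11 and HOXD8, all within 2-fold, had 23, 23 and 28. HOXD12, dim on both arrays, had 16. Whether the CG count goes with the ratio was not tested.

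Non-coding RNAs transcribed within the clusters were mostly dim. Of 11 measured, 3 passed the filter at their brightest probe set. HOTAIR, known for recruiting Polycomb proteins to other loci, gave 1254 in miR-127-3p cells and 1007 in control cells. Its RefSeq gene lies in the HOXC cluster and overlaps HOXC11. HAGLR, whose RefSeq gene overlaps HOXD1, gave 311 in miR-127-3p cells and 608 in control cells. It was 1.96-fold lower, short of the 2-fold rule, and HOXD1 itself was at least 2.83-fold lower, at a probe set with a cross-match suffix. HOXD-AS2, which lies between HOXD8 and HOXD4, gave 731 in miR-127-3p cells and 316 in control cells and was 2.32-fold higher, while both of its HOX neighbours stayed within 2-fold. HOXA-AS2, which overlaps HOXA3 and HOXA4, was dim at its brightest probe set, with 58.3 in miR-127-3p cells and 58.6 in control cells. Another of its probe sets gave 144 in miR-127-3p cells and 10.7 in control cells, at least 1.54-fold higher. HOTTIP, from the high-numbered end of the HOXA cluster, was dim at the 3 probe sets named for it, with 42.4 in miR-127-3p cells and 36.1 in control cells at the brightest.

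Genes near the clusters were compared at the same probe set rule, from a list that was not confined to the nearest genes at each end. Of 18 past the filter, 1 was at least 2-fold higher, 1 lower, and the median log2 ratio was 0.12. The shares among all genes past the filter were 5.06% higher and 8.67% lower. SKAP1, an adaptor protein of T cells and the first protein-coding gene beyond HOXB1, gave 72.0 in miR-127-3p cells and 827 in control cells and was at least 9.92-fold lower. SNX11, the next gene on that side, gave 576 in miR-127-3p cells and 524 in control cells, and at another probe set 446 in miR-127-3p cells and 557 in control cells. MTX2, the first gene beyond HOXD1, and LNPK, beyond HOXD13, had ratios of 0.13 and 0.01.

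Among HOX cofactors, PBX3 and MEIS2 were higher in miR-127-3p cells. Of 10 TALE homeobox genes past the filter, 2 were at least 2-fold higher, none was lower by that much and the median ratio was 0.34. The shares among all genes past the filter were 5.06% higher and 8.67% lower. PBX3, a direct partner of HOX proteins, gave 1592 in miR-127-3p cells and 588 in control cells. MEIS2, a partner of PBX and HOX proteins, gave 4587 in miR-127-3p cells and 1744 in control cells. These are 2.71-fold and 2.63-fold higher. PKNOX2 gave 200.3 in miR-127-3p cells and 133 in control cells. Another of its probe sets was 2.03-fold higher, with 216 in miR-127-3p cells and 106 in control cells. PKNOX1 was within 2-fold at 2 probe sets, while another gave 86.1 in miR-127-3p cells and 227 in control cells, 2.63-fold lower. MEIS1 had a ratio of 0.70, while PBX4 was at -0.92 and TGIF1 at -0.71.

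Regulators of HOX transcription mostly stayed within 2-fold. At the brightest probe set none of 15 trithorax group genes reached 2-fold, nor did any of 16 genes of the Polycomb list, which includes the insulator protein gene CTCF. Their median log2 ratios were -0.08 and -0.27. Of the 16, CTCF among them, 13 had ratios below 0, as did 5992 of all 11985 genes past the filter. Other probe sets went further for MTF2, a partner of Polycomb repressive complex 2. All 5 of its probe sets were lower, and one reached 2.84-fold, with 190 in miR-127-3p cells and 538 in control cells. EZH2, the methyltransferase of Polycomb repressive complex 2, gave 1482 in miR-127-3p cells and 1935 in control cells. KMT2A, the trithorax methyltransferase, gave 953 in miR-127-3p cells and 1091 in control cells, while another of its 11 probe sets was at least 2.28-fold lower, with 68.8 in miR-127-3p cells and 190 in control cells. Of 10 genes of the CDX and retinoic acid list past the filter, 2 had ratios past 2-fold on the higher side and 2 on the lower. The shares among all genes past the filter were 5.06% higher and 8.67% lower. With dim signals set to the array median, 1 gene of the list was higher by that much. RDH10 and DHRS3, enzymes that interconvert retinol and retinal, were 4.45-fold and 2.78-fold lower, with 336 and 1760 in miR-127-3p cells against 1496 and 4889 in control cells. CYP26B1, which degrades retinoic acid, was 2.06-fold higher with 947 in miR-127-3p cells against 460 in control cells. The other gene on that side, the receptor RARG, was dim in control cells and at least 1.93-fold higher, but its second probe set pointed the other way with 64.6 in miR-127-3p cells and 110 in control cells. CDX1, CDX2 and CDX4, which activate HOX genes in the embryo, were dim on both arrays, as were GSX1, GSX2 and PDX1, so that all 6 ParaHox genes were dim.

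Head homeobox genes, which mark forebrain and midbrain rather than trunk, were mostly dim too, 4 of 13 passing the filter. LHX2, a forebrain gene, was 2.14-fold higher with 703 in miR-127-3p cells against 329 in control cells, though a second probe set gave 122 in miR-127-3p cells and 125 in control cells. EN2, a midbrain-hindbrain gene, was 2.31-fold lower with 165 in miR-127-3p cells against 381 in control cells. OTX1, OTX2, EMX1 and EMX2 were dim on both arrays.

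**Figure D4:**
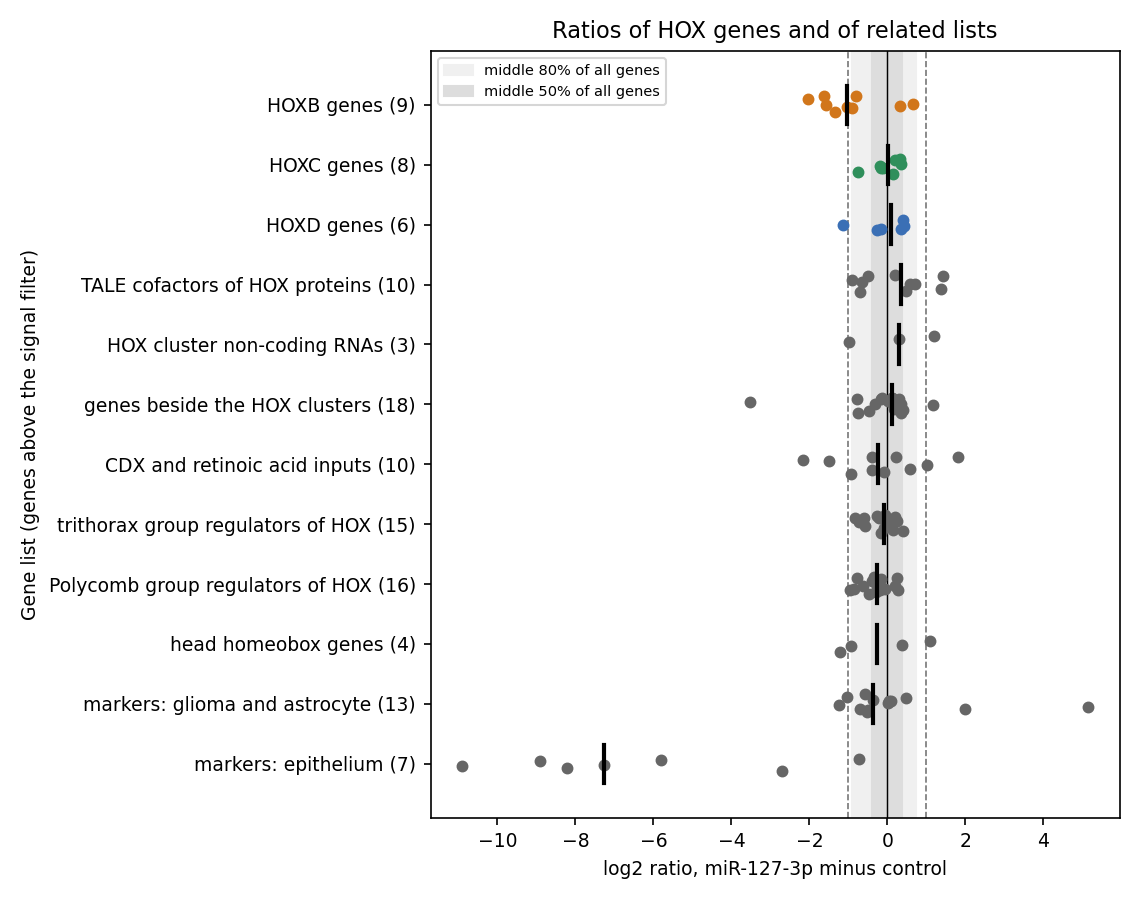
Log2 ratio of miR-127-3p minus control (x axis) for genes past the signal filter in the HOXB, HOXC and HOXD clusters and in related lists (y axis, number of genes in brackets); points are genes, black bars list medians, grey bands the middle of all genes and dashed lines 2-fold. HOXB genes lie mostly left of 0 around a median of -1.04, and the epithelial markers lie farther left than any HOX gene past the filter in all but 1 of 7 genes.

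Markers of cell identity differed along the same pair of arrays. Of 16 glioma and astrocyte markers, 13 were above the median in miR-127-3p cells and 12 in control cells. VIM, the filament protein vimentin, gave 48866 in miR-127-3p cells and 45584 in control cells, but GFAP, the astrocyte filament, was dim on both arrays at 14.9 in miR-127-3p cells and 34.2 in control cells. The glutamate carrier gene SLC1A3 was higher by at least 28.6-fold, the growth factor receptor EGFR gave 2472 in miR-127-3p cells and 618 in control cells, with another of its probe sets at a ratio of 0.01, and the stem cell genes SOX2 and NES were 2.35-fold and 2.02-fold lower. Of 13 epithelial markers, 12 were brighter in control cells, ones dim on both arrays included, and KRT5 alone in miR-127-3p cells. Of the 13, 11 were above the median on at least 1 array. With dim signals set to the median, control cells exceeded miR-127-3p cells by 2-fold or more for 9 of these 11. That held for 8.51% of all 12848 genes so counted. Signals of the 13 summed to 7776 in miR-127-3p cells, from 5.36 to 6906 per gene, and to 93722 in control cells, from 4.52 to 44863. EPCAM, KRT19 and DSP, an adhesion molecule, a keratin and a desmosomal protein, were at least 110-fold, 152-fold and 83.9-fold lower, and KRT8 was 55.2-fold lower. Of 11 gut epithelial markers, 4 were above the array median in control cells and 0 in miR-127-3p cells. The others were dim on both arrays. All 11 signals were higher in control cells, the dim ones included. They summed to 379 in miR-127-3p cells, from 3.85 to 72.3 per gene, and to 14852 in control cells, from 8.12 to 11542. GPX2, VIL1, TFF3 and MUC13 were at least 138-fold, 22.2-fold, 9.69-fold and 4.05-fold lower. CDX2, the defining gut factor that also acts on HOX genes, was dim on both arrays at 3.85 in miR-127-3p cells and 8.12 in control cells.

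Of 10 fibroblast and mesenchymal markers, 7 passed the filter with a median log2 ratio of 0.29. DCN, a matrix proteoglycan, was 2.24-fold higher and COL1A1, a collagen, 3.85-fold lower. Another probe set of DCN was at a ratio of 0.10, and others of COL1A1 were at -0.04 and -0.42. Of 8 neuronal markers 3 passed, with a median of 0.73 and SNAP25, a synaptic protein, 2.29-fold higher. Of 7 haematopoietic markers 3 passed and none reached 2-fold. The part of all these marker differences in the HOX ratios was not tested, and in bulk RNA fewer cells with a transcript and less transcript per cell cannot be told apart.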

How the data were processed

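The deposited values are probe set signal intensity values of 2 arrays on a linear scale. Per the labels' protocols, biotin-labelled cRNA was made from Trizol-extracted total RNA with an Affymetrix 3′ labelling kit. How the authors summarised probes and corrected background is not given in the sources used here. The mean signal after trimming 2% at each end was 500.1 on both arrays, and no detection calls were used. Groups came from the genotype labels. With arrays there is no read depth, and their number limits the precision.

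Of 54613 non-control probe sets, 41091 had 1 gene symbol, 1801 had several and 11721 were unnamed here. RefSeq (GRCh38.p14) matched 99.9% of those with 1 symbol through Entrez identifiers. Signals were turned into log2(signal + 1), which understates the change of low genes. Probe sets with a mean log2 above the median of all, a signal of about 83.0, entered, and the brightest stood for its gene. The median ratio, 0.01, was subtracted. Every HOX gene was named, with other probe sets given as well. From other lists up to 4 genes in each direction past 2-fold were named, with CDX2, EPCAM, GFAP and VIM. The value of 1 gene beside a cluster is not reported here. HOTAIR, HAGLR, HOTTIP, SNX11, MTX2, LNPK, MEIS1, PBX4, TGIF1, EZH2, KMT2A, RARG, PKNOX1, PKNOX2, MTF2, CTCF, HOXA-AS2, KRT5, the dim ParaHox and head genes, and the promoter pair were chosen after values were seen. Members and lists were chosen with earlier results of these data known.

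Alternatives were a 1.5-fold or 3-fold threshold, other filters, floors, scalings, pseudocounts of 16 and 32, and other choices of probe set. Python 3.11.15, numpy 2.4.6, pandas 2.3.3, statsmodels 0.14.6 and matplotlib 3.10.9 were used.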

Additional observations from a re-analysis of the deposited data

How the results depend on the processing

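With 1 array in each group no replicate could be left out. No paired analysis was possible because each group has a single array. The count of 6 HOX genes at least 2-fold lower was 2 at 3-fold and 2 with the filter at the 75th percentile, which 8 HOX genes passed. It was 5 to 9 under the other alternatives. Without probe sets that carry a cross-match suffix it was 5 of 18 HOX genes, against 6 of 24 in the main setting. There the HOXB genes fell from 9 to 5, as HOXB5, HOXB6, HOXB7 and HOXB8 had no value. HOXC6 and HOXC13 had none either. The count of 0 HOX genes higher was 1 at 1.5-fold and 1 with no filter, where the dim HOXB1 entered. Over all genes the counts higher and lower were 1743 and 2167 at 1.5-fold, 188 and 472 at 3-fold, 2531 and 3400 with no filter, and 259 and 387 with the filter at the 75th percentile. The HOXB median of -1.04 was -1.66 with that filter, over 3 genes, and ranged from -1.66 to -0.89 over all alternatives. The median over all HOX genes, -0.17, ranged from -0.17 to -0.06. The HOXC median ranged from -0.06 to 0.18 and the HOXD median from -0.16 to 0.37. HOXB9 fell short of 2-fold with quantile normalization, loess, scaling to the 75th percentile and both pseudocounts, and HOXD13 did so with a pseudocount of 32. Of 266 recomputed single-gene ratios 1 moved by over 0.41, HOXB5, at 0.01 with the mean of its probe sets. With each array's 75th percentile as the floor, 5 HOX genes were above it in miR-127-3p cells and 10 in control cells. The share of all genes above that floor was not computed. HOXB3, at 462 in miR-127-3p cells, lay just under that array's floor of 468. HOXB5 counted in control cells alone, whereas its other probe set, at 585 in miR-127-3p cells and 327 in control cells, would count in miR-127-3p cells alone.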
